A study of Arabidopsis thaliana with 4 samples.

Results

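The dormancy/auxin-associated genes form a small plant family, and 3 of its members were followed here in inflorescence tips of Arabidopsis thaliana. They were DRM1 (AT1G28330, listed by RefSeq as DYL1), DRM2 (AT2G33830) and AT1G56220, out of 22810 probe sets on the Affymetrix ATH1 array. DRM1 was taken by its probe set (ID.245668_at) and DRM2 by its own (ID.267461_at). These assignments came with the choice of the members, since the platform annotation used here listed neither probe set. AT1G56220 was found through that annotation. The members were picked with their difference between the lines in view. Their values are therefore given as a description with no test.

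Genes of this family were first described as transcripts that are abundant in dormant axillary buds of pea and that drop when the buds begin to grow, and as auxin-repressed transcripts of strawberry. In Arabidopsis, DRM1 is widely used as a marker of bud dormancy, and its transcript is also known to accumulate when sugar is short. The proteins are small, and their biochemical function is not established.

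The mutant line tmm-1, which carries an allele of TMM, a leucine-rich repeat receptor-like protein gene of stomatal patterning, was set against Col-3 gl1, a line with a mutation in the leaf hair regulator GL1. The title of the series speaks of meristemoid cell fate; meristemoids are the precursor cells of stomata. Plants of both lines stood in growth chambers on a peat-based potting mix at 22 °C and 70% humidity, under lamps of 125 µmol per square metre per second for 16 h a day, and tips were taken at growth stage 6.10. The labels give no treatment, and they do not say whether the mutant line carries gl1 too. Each line had 2 arrays, each with RNA of a pool of tips. Nothing in the labels says that the pools came from separate plants, so the spread between arrays may be technical. The titles spell the control line differently from the source name, which was used here.

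The mutant's replicate 2 stood somewhat apart. Its 10th percentile signal was 3.06 array units, against 1.54 to 1.60 on the other arrays, and it correlated with them at 0.958 to 0.966, where the other 3 correlated among themselves at 0.974 to 0.979 (across probe sets). The members' log2 differences are therefore also given without it, while nearest profiles, list medians and summed signals use all 4 arrays. The label of the tissue could be checked on few genes. Of 17 listed markers of inflorescence and floral meristems, 2 had a named probe set, the floral organ regulator UFO and the stem cell peptide gene CLV3, and both stayed under the highest signal of the Bacillus control probe sets, 21.2, on all 4 arrays. Transcripts of TMM and GL1 are not analysed here.

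All 3 members had lower signals in tmm-1 than in Col-3 gl1. On the plot of family signals, the mutant mean of DRM2 stood at 17.7% of the control mean, that of DRM1 at 33.9% and that of AT1G56220 at 49.8%. For each of them both mutant signals lay under both control signals, an arrangement found in 16.8% of the 16960 probe sets tested, while 38.3% had no overlap in either direction. Nothing is read from this count, since the members were chosen on the same contrast. In tissue pools, a smaller share of the cells that hold a transcript and less transcript per cell cannot be told apart.

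**Figure D1:**
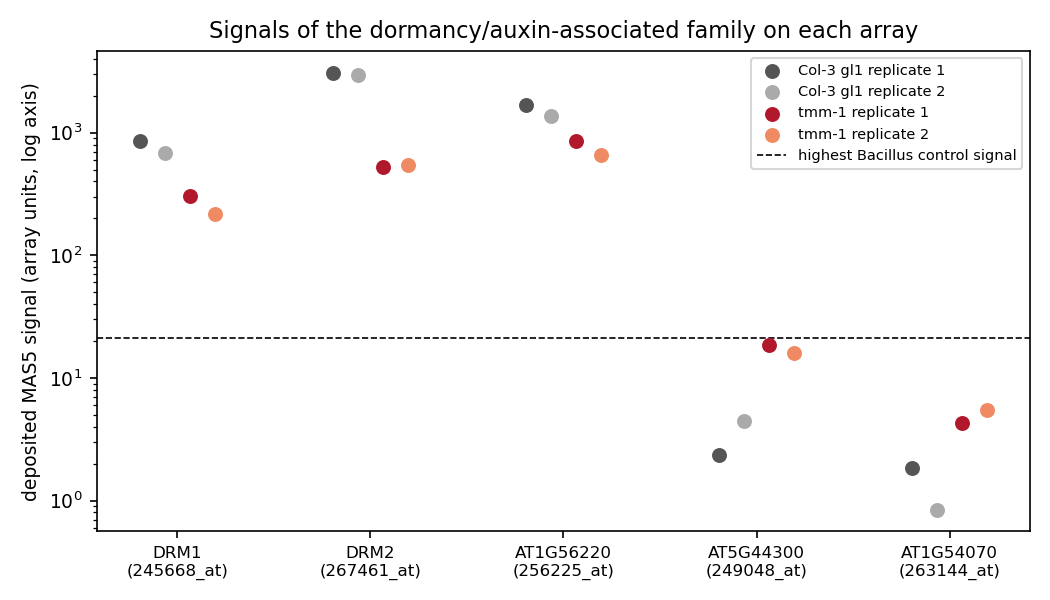
Deposited MAS5 signals (array units, log axis) of the 5 loci of the family on each of the 4 arrays, with Col-3 gl1 in grey, tmm-1 in red and orange, and the highest Bacillus control signal of 21.2 as a dashed line. DRM1, DRM2 and AT1G56220 lie above the line with both tmm-1 points under both control points, while AT5G44300 and AT1G54070 lie under the line on every array; signals of different probe sets are not comparable in height.

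DRM2, a dormancy-associated gene by its RefSeq synonyms, had signals of 3087 and 2924 in Col-3 gl1 and 520 and 541 in tmm-1. The control arrays were high and the mutant arrays low, with a wide gap between them. The mean was 3006 ± 116 (SD, n = 2) in the control and 531 ± 14.3 in tmm-1, a 5.66-fold lower mean signal. On the log2(signal + 10) scale, used for all log2 values here, the difference was -2.48, the lowest of all 16960 probe sets tested. Over the 4 possible pairs of a mutant with a control array it ran from -2.55 to -2.41. Within a line the arrays differed by 0.05 in tmm-1 and 0.08 in the control on that scale.

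DRM1, the dormancy marker, had signals of 855 and 679 in Col-3 gl1 and 302 and 219 in tmm-1. The lines did not overlap, and in each line replicate 2 was the lower array. Mean signals were 767 ± 124 (SD, n = 2) and 260 ± 59.0, so that the control mean was 2.95 times that of tmm-1. The log2 difference was -1.53, the ninth lowest of the probe sets tested (rank 9 of 16960). Pairs of arrays gave -1.92 to -1.14, a wider range than for DRM2. The gaps within a line were 0.45 in tmm-1 and 0.33 in the control, and the smallest gap between the lines was 1.14.

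AT1G56220, a family member with no established role, had signals of 1671 and 1356 in Col-3 gl1 and 854 and 653 in tmm-1. Here too the mutant arrays were the low ones. Means were 1513 ± 222 (SD, n = 2) in the control and 754 ± 142 in tmm-1, a 2.01-fold difference. The log2 difference was -1.0, at rank 48 from the lowest, and ran from -1.34 to -0.66 over the pairs of arrays. Gaps within a line were 0.38 in tmm-1 and 0.30 in the control, and the smallest gap between the lines was 0.66.

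**Figure D2:**
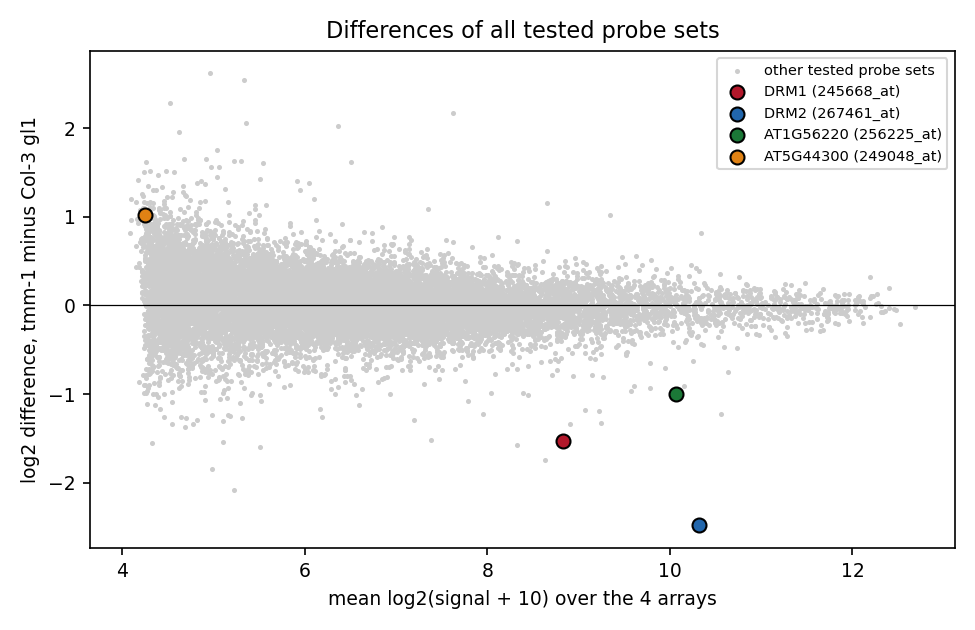
Log2 difference of tmm-1 minus Col-3 gl1 (vertical axis) against the mean log2(signal + 10) over the 4 arrays (horizontal axis) for the 16960 probe sets tested, with family probe sets in colour. DRM2 is the lowest point at -2.48, DRM1 lies at -1.53 and AT1G56220 at -1.0, all at the bright end, while AT5G44300 lies at 1.02 at the dim end, where the cloud is wide.

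The members differed among themselves in the size of their difference. The log2 difference of DRM2 was 1.48 units further from 0 than that of AT1G56220, and over the 4 pairs of arrays the value of DRM2 minus AT1G56220 ran from -1.81 to -1.15. DRM1 minus DRM2 was 0.95, with pairs from 0.57 to 1.32. DRM1 minus AT1G56220 was -0.53, and its pairs lay close together, from -0.58 to -0.48. The order DRM2, DRM1, AT1G56220 was thus the same in each of the 4 pairs. DRM1 and AT1G56220 also ranked the 4 arrays alike, with control replicate 1 highest, control replicate 2 next, then tmm-1 replicate 1 and tmm-1 replicate 2 last. Replicate 1 lay above replicate 2 in both lines for 23.1% of the 16960 probe sets tested, so nothing is read from this shared order. In DRM2 replicate 2 was the higher of the tmm-1 arrays. These are descriptions of 4 arrays, and probe sets can respond unequally to the same change in RNA.

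The order of the members was the same under each other pseudocount, scaling and left-out array that was run. Without tmm-1 replicate 2, the array that stood apart, the log2 differences were -2.51 for DRM2, -1.31 for DRM1 and -0.81 for AT1G56220. Leaving out each of the 4 arrays in turn gave -2.52 to -2.44 for DRM2, -1.76 to -1.31 for DRM1 and -1.19 to -0.81 for AT1G56220. With a pseudocount of 1 the differences of DRM2, DRM1 and AT1G56220 were -2.50, -1.56 and -1.01.

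The other listed loci of the family were too dim on all arrays to show whether they share the pattern of the 3 members. AT5G44300, whose role is not established, gave 2.34 and 4.44 in Col-3 gl1 against 18.4 and 15.9 in tmm-1. The mutant arrays were the higher ones here, but all 4 signals lay under the Bacillus control signal of 21.2. Its log2 difference of 1.02 ± 0.48 (SE) did not pass limma's test across all probe sets (adjusted p = 0.544), and it moved from 0.67 to 2.09 with the pseudocount. The locus passed the signal filter of 10, at a mean of 10.3, only through its tmm-1 arrays. Nothing is therefore read from its difference. AT1G54070 gave 1.85 and 0.844 in the control against 4.26 and 5.46 in tmm-1, too dim to be tested. RefSeq lists 6 transcripts for DRM1, 5 for AT1G56220, 2 for DRM2 and 1 each for AT5G44300 and AT1G54070, and a probe set gives a single value for a locus, so splice forms were not told apart. DRM1, AT1G56220 and AT1G54070 lie on chromosome 1, DRM2 on chromosome 2 and AT5G44300 on chromosome 5.

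Genes with a profile like that of a member were sought among 9522 tested probe sets of a single named locus, by the Euclidean distance between the centred log2 values of the 4 arrays. The nearest to AT1G56220 was AT1G75180, at a distance of 0.10. Its signals were 174 and 153 in Col-3 gl1 and 86.6 and 67.4 in tmm-1, so it ranked the arrays as AT1G56220 did. Next were AT4G03730 and PSY1R, a receptor kinase gene for a sulfated peptide, at 0.13 and 0.18. PSY1R, at 17.7 and 14.1 in the control and 6.90 and 1.40 in tmm-1, was under the Bacillus control signal of 21.2 on all 4 arrays. AT4G03730, at 22.0 and 16.1 against 8.45 and 3.11, was above it on 1 array. The distances of both thus rest on signals at or near background level. The log2 differences of AT4G03730 (-0.89 ± 0.45, limma adjusted p = 0.583) and PSY1R (-0.90 ± 0.49, adjusted p = 0.639) did not pass the test. Their tmm-1 means, 5.78 for AT4G03730 and 4.15 for PSY1R, were under the signal filter, which both passed only through their control arrays. At such tmm-1 signals only probe sets higher in the control could be tested, so nothing is read from the direction of these differences.

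For DRM1 the nearest profile was that of AT3G10020, at a distance of 0.27, with 792 and 710 in the control and 319 and 265 in tmm-1. AT4G12690 followed at 0.34, a dim probe set with 42.2 and 23.1 in the control and 10.6 and 2.49 in tmm-1 (log2 difference -1.37 ± 0.39, limma adjusted p = 0.147). With a tmm-1 mean of 6.53, it too passed the signal filter only through its control arrays. AT2G15960 came after it at 0.37, with 838 and 610 against 209 and 203.

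**Figure D3:**
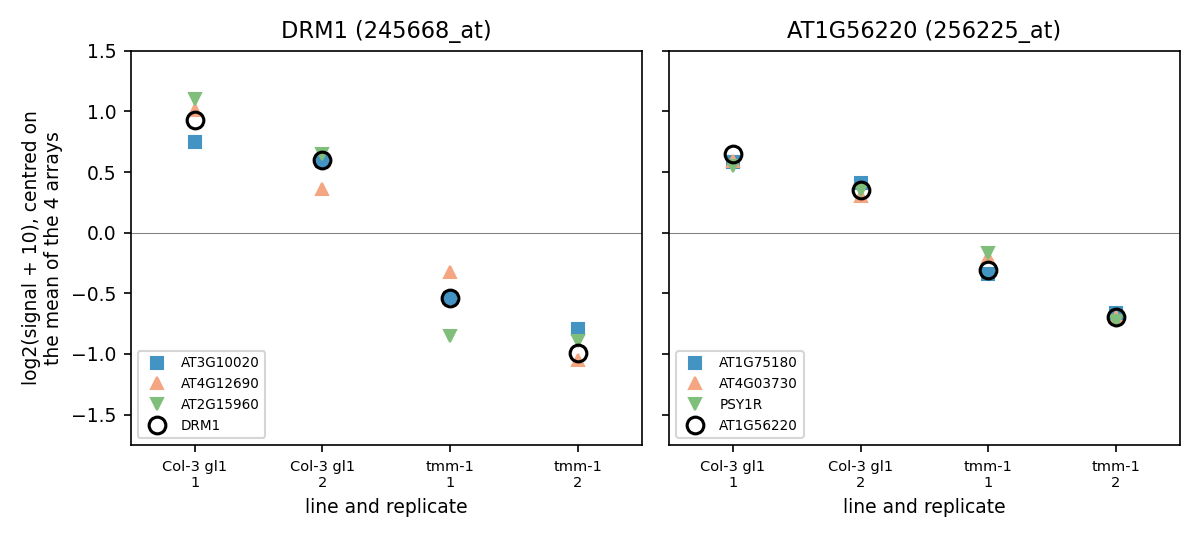
Log2(signal + 10) centred on the mean of the 4 arrays (vertical axis) on each array (horizontal axis) for DRM1 and AT1G56220 (open black circles), each with the 3 named genes of nearest profile (coloured points). Both members step down in the order control replicate 1, control replicate 2, tmm-1 replicate 1, tmm-1 replicate 2, and AT1G75180 lies closest to AT1G56220, at a distance of 0.10; signals of AT4G03730 and PSY1R were mostly under the Bacillus control signal of 21.2.

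No named gene came as close to DRM2. Its nearest, AT2G15960, lay at a distance of 0.78, COR27, a cold- and clock-regulated gene, at 0.88 and AT3G10020 at 1.17. COR27 had 64.3 and 69.4 in the control and 16.0 and 2.69 in tmm-1, where both signals were under the Bacillus control signal. Its tmm-1 mean of 9.34 was also under the signal filter, which COR27 passed through its control arrays. The members themselves lay 0.53 apart for DRM1 and AT1G56220, 1.03 for DRM1 and DRM2 and 1.52 for DRM2 and AT1G56220. DRM1 was thus nearer to DRM2 than AT3G10020 was, but the search left it out because the annotation did not list its probe set. All of these distances rest on 4 values per gene and include the difference between the lines, on which the members were chosen. With 2 arrays per line, a distance cannot be smaller than the gap between the log2 differences of the genes compared. That gap made up most of each distance between members. DRM2 had the lowest log2 difference of all probe sets tested. Its lack of a close neighbour thus cannot be separated from the size of its difference, and nothing is read from it.

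**Figure D4:**
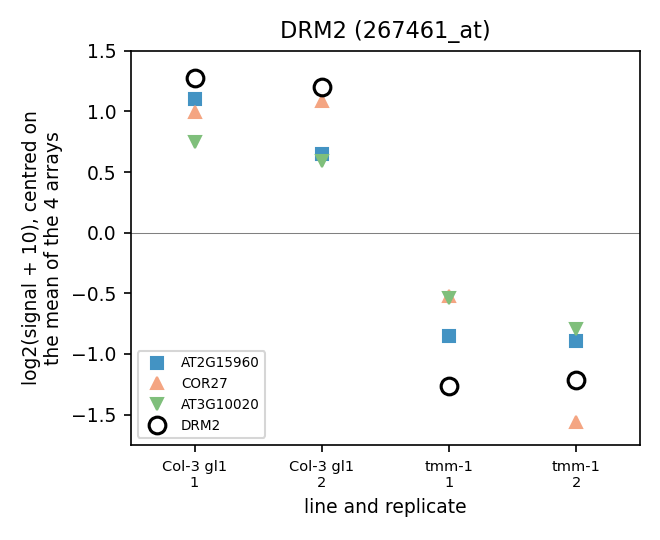
Log2(signal + 10) centred on the mean of the 4 arrays (vertical axis) on each array (horizontal axis) for DRM2 (open black circles) and the 3 named genes with the nearest profile (coloured points). DRM2 lies highest on both control arrays, and the 3 genes stay 0.78 to 1.17 from it in distance. DRM1, at 1.03, was not among the genes searched.

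Genes tied to bud dormancy and sugar starvation were followed as the wider setting of the family, since dormant buds and starved tissue share many transcripts. Of 32 listed, 8 had a named probe set and 7 were tested, and of these limma called 3 lower and 0 higher in tmm-1 at an adjusted p below 0.05. Over all probe sets tested, 0.613% were called, 0.371% lower and 0.242% higher. AKINBETA1, a regulatory subunit gene of the energy-sensing kinase SnRK1, fell from 487 ± 33.9 (SD, n = 2) in Col-3 gl1 to 237 ± 14.7, a log2 difference of -1.01 ± 0.15 (SE, limma adjusted p = 3.2e-04). MCCA, a subunit gene of the leucine-degrading methylcrotonyl-CoA carboxylase, fell from signals of 345 and 381 to 152 and 206. ATL8, a ubiquitin ligase gene, fell from 152 and 145 to 84.8 and 77.0. Some of these genes were known to be lower in tmm-1 when the list was written, so the count is not independent evidence of its direction.

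The other 4 tested genes of that list did not pass. MCCB, the partner subunit of MCCA, had 193 and 202 in the control and 145 and 129 in tmm-1, with no overlap and a log2 difference of -0.50 ± 0.16 (limma adjusted p = 0.245). IVD, which encodes an enzyme of the preceding step of leucine breakdown, had 43.2 and 58.3 in the control and 39.9 and 56.8 in tmm-1, with overlapping lines. AT3G15450 had 3527 and 4178 in the control against 3227 and 3475 in tmm-1, also with no overlap. Of all probe sets tested, 16.8% were lower in tmm-1 with no overlap, so nothing is read from this in MCCB or AT3G15450. EXO, a gene of cell expansion, had 350 and 455 in the control against 493 and 425 in tmm-1. The list's median log2 difference was -0.50, with 6 of 7 genes below 0, where the median over all probe sets tested was 0.03. Some of these genes were known to be lower when the list was written, so neither this median nor this count is independent evidence.

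**Figure D5:**
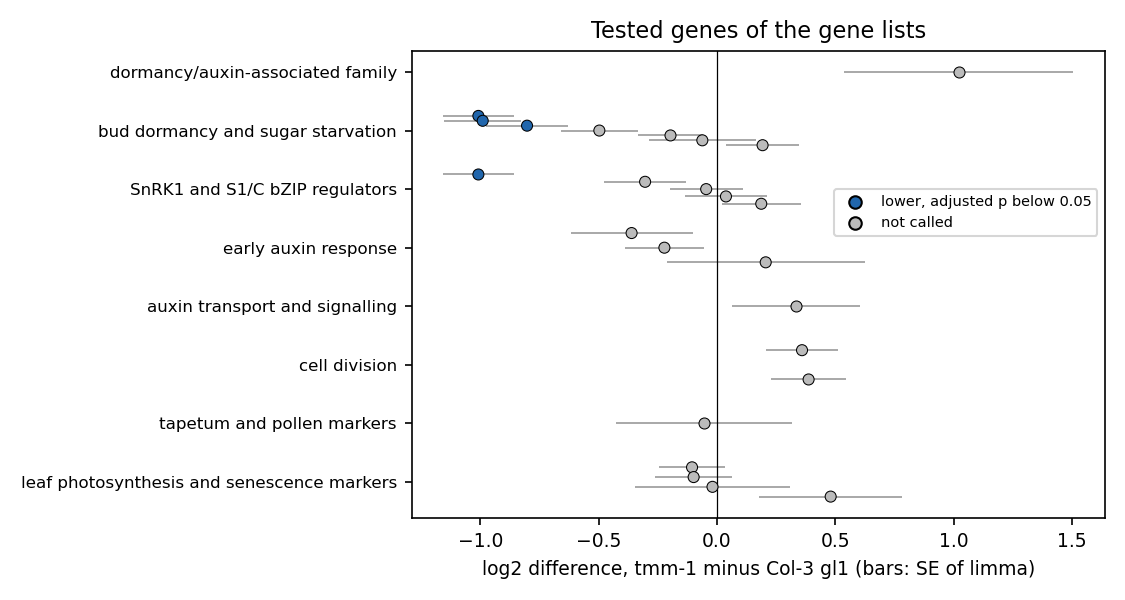
Log2 difference of tmm-1 minus Col-3 gl1 (horizontal axis, bars are the SE of limma) for the tested genes of each list (rows), with the 3 members left out. Genes with an adjusted p below 0.05 are blue and all lie below 0: AKINBETA1, which is in 2 lists, MCCA and ATL8.

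Calls in these lists depended on how limma set the variance of a gene. Without the variance trend on intensity limma called 0 of the 23 listed genes and 0 probe sets in all, with 6 and 1293 at an unadjusted p below 0.05. Without the filter on low signals AKINBETA1 alone of the 3 was called, at an adjusted p of 0.0307, within a range of 4.6e-06 to 0.275 over its 12 alternatives. ATL8 was not called without Col-3 gl1 replicate 1, tmm-1 replicate 2 or Col-3 gl1 replicate 2, nor after quantile normalization, with adjusted p-values of 0.00580 to 0.364 over its 12 alternatives.

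Regulators that act with SnRK1 had 5 of 13 listed genes tested, of which AKINBETA1 again was the gene called lower. Over all probe sets tested, 0.371% were called lower. BZIP53, a transcription factor gene of the low-energy response, had 313 and 365 in the control and 299 and 358 in tmm-1, with overlapping signals. The related factor gene bZIP44 had 156 and 146 against 107 and 135 (log2 difference -0.30 ± 0.17, limma adjusted p = 0.647). AT4G16360 and AT2G28060, which like AKINBETA1 encode beta-type subunits of the kinase, were at 0.19 ± 0.17 and 0.04 ± 0.17, neither of them called. The list's median was -0.05.

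Auxin genes were examined because the family is named for its response to this hormone. Of 32 listed early auxin response genes, 8 had a named probe set and 3 were tested, with 0 called by limma and 0 at an unadjusted p below 0.05. Over all 16960 probe sets tested, limma called 0.613%, and 1495 had an unadjusted p below 0.05. With so few genes tested, nothing is read from these counts. WES1, also known as GH3.5, which encodes an auxin-conjugating enzyme, had 32.9 and 46.1 in Col-3 gl1 and 25.6 and 31.0 in tmm-1 (log2 difference -0.36 ± 0.26, adjusted p = 0.753). IAA18, of the auxin-degraded repressor family, had 208 and 181 against 183 and 148 (-0.22 ± 0.17), with overlapping lines. LBD16, a target of auxin signalling in roots, was at 0.21 ± 0.42. IAA20, IAA29, GH3.1, GH3.3 and LBD29 were under the signal filter. Of 23 listed genes of auxin transport and signalling, 1 was tested, the auxin synthesis gene YUC2, with 20.6 and 36.2 in the control and 40.3 and 34.6 in tmm-1 and an adjusted p of 0.791.

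Cell division genes, which are low in dormant buds, had 2 of 28 listed members tested. PRL, a subunit gene of the MCM helicase that licenses DNA replication, had 209 and 236 in Col-3 gl1 and 262 and 329 in tmm-1, a log2 difference of 0.39 ± 0.16. The mitotic kinase gene AUR1 had 201 and 201 against 258 and 263, a difference of 0.36 ± 0.15. In both the mutant arrays were the higher ones. Across all probe sets tested, 38.3% had no overlap between the lines in either direction, so nothing is read from this. Limma called neither PRL (adjusted p = 0.450) nor AUR1 (adjusted p = 0.478). Their unadjusted p-values were 0.0229 and 0.0275, where 1495 of the 16960 probe sets tested had one below 0.05. Genes of the abscisic acid response list were not analysed here, since none of its 18 loci had a named probe set.

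Markers of other tissues were set beside these values. Of 13 listed genes of leaf photosynthesis and senescence, 4 were tested and 0 called, where 0.613% of all probe sets tested were called. Their signals summed to 2291 and 1724 in Col-3 gl1 against 1949 and 1780 in tmm-1, with overlapping lines. The photosynthesis gene RCA made up most of each sum, with 1555 and 1036 in the control and 1288 and 1090 in tmm-1. These sums thus say little about senescence. WRKY53, a senescence regulator gene, was at 0.48 ± 0.30 (limma adjusted p = 0.700) and PRK, of carbon fixation, at -0.11 ± 0.14. Of 11 markers of tapetum and pollen, 3 had a named probe set, whose signals summed to 23.9 and 33.9 in the control against 33.7 and 25.3 in tmm-1. The tapetum genes AMS and AT5G07230 were under 21.2 on every array. EMS1, an anther receptor kinase gene, was the 1 tested, at -0.05 ± 0.37. The 2 floral markers summed to 2.10 and 5.22 in the control against 3.51 and 8.26 in tmm-1. The part of these tissues in the members' differences was not tested.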

How the data were processed

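Each deposited intensity value is a linear signal of a probe set; MAS5 and GCOS are the tools in the submitters' processing notes, and other settings are not given in the sources used here. The 2% trimmed mean was 100.0 on every array, so arrays were not scaled again, and this removes overall differences in RNA content. Probe sets were named through a platform annotation and RefSeq (TAIR10.1), where 13436 of 22810 matched a single locus and 8794 were not listed. After removal of 64 control probe sets, the 16960 with a mean signal of at least 10 were tested on log2(signal + 10). The tool was limma 3.58.1 in R 4.3.3 (variance trend, two-sided, Benjamini-Hochberg). Its code was run on values simulated from the fitted variance trend, a check that cannot test the trend itself. SEs and p-values rest mostly on that trend (23.58 prior degrees of freedom). An exact permutation test of 2 against 2 arrays cannot go below 0.33, and precision is limited by how few arrays there are.

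The members and 10 gene lists were chosen with earlier results of these data known. The text names the members and family loci, called list members (at most 6) or the 2 of smallest p, and 3 nearest profiles per member; the other list genes given complete their lists and were chosen after their values were seen. Probe set 245668_at was read as DRM1, 267461_at as DRM2 and 256225_at as AT1G56220; elsewhere the brightest probe set stood for a locus. Alternatives varied pseudocount, scaling, filter, variance trend, probe set rule, block and arrays.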

Additional observations from a re-analysis of the deposited data

How the results depend on the processing

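The log2 differences of the 3 members kept their sign under every setting run. DRM2 moved by more than its spread between arrays under 1 setting, scaling to the median, at -2.57. Limma's 104 calls (41 higher, 63 lower) became 69 after quantile normalization, 17 without the filter and 0 without the variance trend, and scaling to the median gave 111 with 31 higher and 80 lower. Listed genes called numbered 3, or 2 after quantile normalization, 1 without the filter and 0 without the trend. Leaving out an array, which assumes that the lone sample varies as the other line does, gave 80 to 572 calls (572 without tmm-1 replicate 1) and 2 to 3 listed genes. Using pool numbers as a replicate block, limma called 191 probe sets and the same 3 listed genes. The members' log2 differences were -1.53 for DRM1, -2.48 for DRM2 and -1.0 for AT1G56220, as without it. With 1 array of each line per pool, such a block cannot change these differences, so their agreement is no check. The numbers were not taken as pairs in the main fit because the labels do not say that they mark a shared day. Arrays of the same number had deviations from their line means that correlated at 0.032 across probe sets, which does not settle the pairing. The causes of these changes were not tested. With signals under 21.2 the direction of AT5G44300 and AT1G54070 is limited by background.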
